A study of Xenopus laevis with 16 samples.

Results

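Amputated hindlimbs of Xenopus laevis tadpoles at stage 57, which the study describes as unable to regenerate, were compared with amputated hindlimbs at stage 53, which it describes as able to, in tissue taken 5 days after amputation. The comparison rests on 8 of the series' 16 Affymetrix arrays, 4 from stage 57 and 4 from stage 53, chosen by the stage and day in their titles. In both groups 1 or both hindlimbs were cut through the middle of the lower leg, and the tissue collected was the 1 mm just proximal to the cut. Each array received 1 µg of total RNA amplified over 2 cycles, and no unamputated limb was analysed here, so no value below separates the response to the cut from the stage of the limb. The other 8 arrays, 4 from stage 57 and 4 from stage 53, came from limbs 1 day after amputation and are used where the days are compared. The labels name neither the animals nor any pooling of limbs, and the p-values therefore reflect the spread among the samples as given, part or all of which may be technical.

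The tadpole hindlimb grows from a bud while the animal passes from premetamorphosis, when thyroid hormone is low, through prometamorphosis, when it rises. Early in that span a cut limb can form a blastema, a mound of proliferating mesenchyme under a wound epidermis, and rebuild the missing pattern. Later the limb holds differentiated muscle and skeleton, and a cut ends in a spike or a stump. Signals of the apical epidermis (FGF8), the posterior mesenchyme (HAND2 and Sonic hedgehog) and BMP antagonists (GREM1) direct outgrowth in the limb buds of vertebrates.

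A single stage 57 array stood apart and is described before the results. For beta-actin, the 3′ over 5′ probe set ratio on the log2 scale, which goes up with short or degraded cDNA, was 0.30, 5.72, 0.90 and 2.38 on stage 57 replicates 1 to 4, against 0.20, 0.33, 0.75 and 1.25 on stage 53 replicates 1 to 4. Only stage 57 replicate 2 exceeded 4 at 5 days, and the next array below that limit was stage 57 replicate 4. Stage 57 arrays averaged 2.33 ± 2.42 and stage 53 arrays 0.63 ± 0.47 (SD, n = 4 per group), and an exact two-sided permutation test gave p = 0.229, where 4 against 4 arrays allow no value under 0.0286. Replicate 2 also had a GAPDH ratio of 6.17, against 4.03, 4.40 and 4.15 on stage 57 replicates 1, 3 and 4. The mean was 4.69 ± 1.0 for all 4 stage 57 arrays and 4.38 ± 0.65 for stage 53 arrays. The bioB control averaged 11.20 log2 units on replicate 2, against 9.41, 9.56 and 9.76 on stage 57 replicates 1, 3 and 4. The dap control averaged 10.47 on replicate 2, against 4.96, 6.39 and 6.37 on those arrays. The cause of these readings was not tested. The correlation of replicate 2 with the other arrays of its group had a median of 0.861 over log2 signals. For every other array at 5 days this median was 0.919 to 0.941. Within groups, replicate 2 included, the correlation ranged over 0.842 to 0.948, and between the stages over 0.819 to 0.926. Stage 57 replicates 2 and 3 at 1 day exceeded the same limit, at 4.70 and 4.76. Results are therefore given for all arrays and, as "without the 3 arrays", after these were left out. Signals, stage differences and list medians at 1 day are given for all arrays only. They thus include 2 stage 57 arrays above the limit. Changes of a list median between days were not tested. The arrays' running codes form a separate block for each group, so any effect of array order and the stage cannot be told apart.

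Of 11618 probe sets tested, 856 (7.37%) differed between the stages at 5 days at an adjusted p below 0.05, by limma with Benjamini-Hochberg adjustment over all of them. Higher signal at stage 57 was found for 452 (3.89%) and lower signal for 404 (3.48%). Without the 3 arrays the counts were 876 higher (7.54%) and 961 lower (8.27%), and 834 of the 856 were called again. All 847 of them that were also tested there kept their sign. List counts without the 3 arrays below are to be read against these shares of 7.54% and 8.27%. The signal filter was applied anew to the arrays kept, so the number of tested genes in a list can change. The 3 arrays are all from stage 57. Genes that drop out there may have entered the main test partly through their signal on those arrays. A fit of the 8 arrays at 5 days alone called 908 probe sets (7.82%), and the same fit without stage 57 replicate 2 called 865 higher (7.45%) and 942 lower (8.11%). Among the 856, 415 were higher and 355 lower by more than 2-fold, while 74 were higher and 20 lower by more than 8-fold. The 4 stage 57 arrays did not overlap the 4 stage 53 arrays for 810 of the 856, and 315 of the 856 carry no gene symbol. Over all tested probe sets the stage 57 arrays lay wholly above stage 53 for 855 (7.36%) and wholly below for 1300.0 (11.2%). For some lists below, counts at an unadjusted p below 0.05 are given too. No share of all probe sets at that threshold is set beside them, so they show no excess by themselves. The gene lists were written with earlier results of these data known. Their shares of calls therefore describe the lists and do not test them. The median log2 difference over all tested probe sets was -0.102. Centring each array on its median moved it to -0.002 and gave 575 higher (4.95%) and 297 lower (2.56%), or 872 (7.51%) in all, so list medians below are to be read against this shift. Leaving out single arrays moved these counts by more than 1.5 times: they were 253 higher and 179 lower without stage 57 replicate 3, 300.0 higher without stage 57 replicate 4, 231 lower without stage 53 replicate 2, 270.0 and 179 without stage 53 replicate 3, and 255 and 153 without stage 53 replicate 4.

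**Figure D1:**
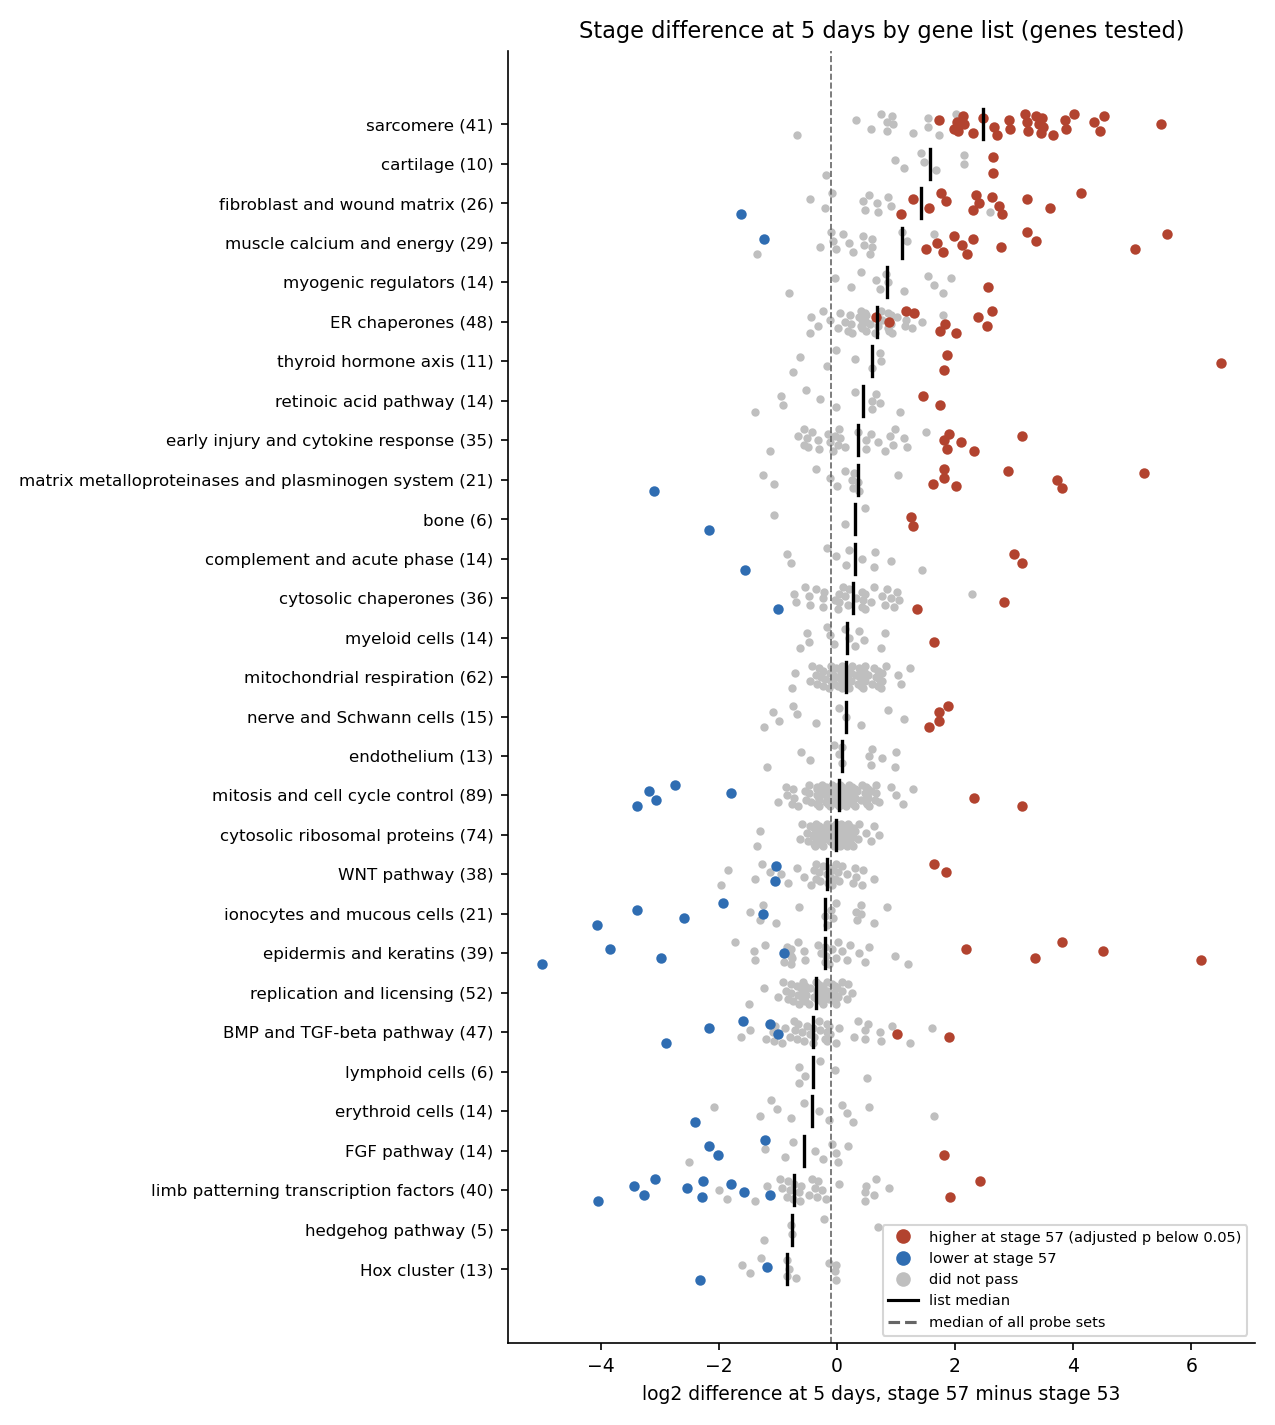
Log2 differences of signal, stage 57 minus stage 53 at 5 days, for every tested gene of 30 gene lists. Each point is a gene, coloured where the adjusted p was below 0.05, and the dashed line marks the median of all tested probe sets, -0.102. The highest list median is that of the sarcomere genes, 2.47, and the lowest that of the Hox genes, -0.84.

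The gene furthest above stage 53 belonged to the thyroid hormone axis. Signal for dio3.L, the deiodinase that inactivates thyroid hormone, was 1650.5, 1012, 4296 and 1792 in stage 57 limbs, against 13.2, 8, 83 and 21.7 in stage 53 limbs. Every stage 57 array exceeded every stage 53 array by more than 8-fold, and the mean was 90.7-fold higher (log2 difference 6.5, SE 0.66, adjusted p = 3.98e-05; 6.8 without the 3 arrays). A difference was also found at 1 day, 4.69 (adjusted p = 0.000719). Signal for crhbp.S, the binding protein of corticotropin-releasing hormone and a thyroid hormone response gene of tadpoles, was 481, 585, 274 and 351 in stage 57 limbs, against 169, 116, 74.5 and 107 in stage 53 limbs. The groups did not overlap (log2 difference 1.86, SE 0.3, adjusted p = 0.00116). The matrix protease stromelysin-3, mmp11.L, is another response gene and read 1336, 426, 1341 and 1455 in stage 57 limbs, against 526, 360.3, 152 and 244.5 in stage 53 limbs. The groups overlapped through stage 57 replicate 2 (log2 difference 1.82, SE 0.5, adjusted p = 0.0348; 2.25 without the 3 arrays), and the call was lost without stage 57 replicate 1, 3 or 4 or stage 53 replicate 2, 3 or 4 (adjusted p up to 0.121). These 3 were the called members among 11 tested genes of the axis (27.3%, against 7.37% of all probe sets), whose median difference was 0.6. The list was written with earlier results of these data known, so this share is no independent support. Of 10 tested without the 3 arrays, 3 were higher, against 7.54% of all, and the median was 0.33. With all arrays 4 of the 11 differences were negative, down to -0.75. For 2 of the 11 the stage 57 arrays lay wholly above stage 53, against 7.36% of all probe sets. For another 2 they lay wholly below, against 11.2%. The receptors did not pass, with thra.L at 0.75 (adjusted p = 0.529) and rxra.L at 0.73 (adjusted p = 0.461). 2 further genes, thdl17.L and thdl18.S, are named for down-regulation by thyroid hormone and were picked out after their values were seen. Signal for thdl17.L was 9698, 1527, 3339 and 2468 in stage 57 limbs, against 24445, 14180.2, 21869.7 and 15657 in stage 53 limbs. Signal for thdl18.S was 3825, 338, 1077 and 936 in stage 57 limbs, against 12390.3, 4740.5, 8153 and 5609 in stage 53 limbs. Neither gene's groups overlapped, and the log2 differences were -2.48 (adjusted p = 0.0301) for thdl17.L and -2.75 (adjusted p = 0.0327) for thdl18.S. The call of thdl17.L was lost without stage 57 replicate 2, 3 or 4 or stage 53 replicate 1, 2, 3 or 4 (adjusted p up to 0.0837). That of thdl18.S was lost without stage 57 replicate 2, 3 or 4 or stage 53 replicate 1, 2, 3 or 4 (adjusted p up to 0.0864).

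Genes of the contractile apparatus were higher at stage 57. Of 41 tested sarcomere genes, 28 were higher, against 3.89% of all probe sets, the other 13 did not pass, and the median log2 difference was 2.47. With the 3 arrays left out, 30 of 37 tested genes were higher, against 7.54% of all. The other members of the list did not pass the signal filter there, and the 3 arrays are all from stage 57. Part of the 28 calls may thus be tied to how the members were selected. The mean log2 signal of the list was 10.97, 9.54, 9.9 and 10.41 on the stage 57 arrays, against 7.54, 7.71, 7.57 and 8.08 on the stage 53 arrays. Stage 57 replicate 2 was the lowest of its group and still above each stage 53 array. Skeletal actin, acta1.S, read 5519, 1167, 6817 and 9215 in stage 57 limbs, against 90.5, 91.5, 97.6 and 121 in stage 53 limbs. It was 45.1-fold higher (log2 difference 5.49, SE 0.81, adjusted p = 0.00059; 6.14 without the 3 arrays). The fast troponin T gene tnnt3.S read 18440.2, 7967, 9409 and 10223 in stage 57 limbs, against 958, 1215, 769 and 1211 in stage 53 limbs. Here the difference was 10.7-fold (log2 difference 3.42, SE 0.42, adjusted p = 0.000152). Desmin, the intermediate filament of muscle, was measured as des.1.S at 8455, 2356, 3219 and 5056 in stage 57 limbs, against 186, 347, 187 and 94.2 in stage 53 limbs. No array overlapped, and the difference was 23.1-fold (log2 difference 4.53, SE 0.55, adjusted p = 0.000152). The sole member of the list with a negative value was the myosin heavy chain myh8.L, at -0.68, which did not pass.

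Part of the genes for calcium handling and energy supply in muscle were higher as well. Of 29 tested, 12 were higher, against 3.89% of all probe sets, 1 was lower, 16 did not pass, and the median was 1.11. Of 28 tested without the 3 arrays, 13 were higher and 2 lower, against 7.54% and 8.27% of all. Calsequestrin, casq1.S, which stores calcium in the sarcoplasmic reticulum, read 1662, 367, 3359 and 3192 in stage 57 limbs, against 53.1, 11.8, 21.3 and 90.6 in stage 53 limbs. Stage 57 replicate 2 was the lowest of its group and above all of stage 53, and the mean was 48.2-fold higher (log2 difference 5.59, SE 0.79, adjusted p = 0.0004; 6.3 without the 3 arrays). The parvalbumin family gene ocm4.4.S, a calcium buffer, read 2515, 930.3, 3859.5 and 2173 in stage 57 limbs, against 53.8, 26.6, 96.8 and 114 in stage 53 limbs. Its difference was 33.4-fold (log2 difference 5.06, SE 0.62, adjusted p = 0.000152), and 3 further probe sets for the gene gave 5.04, 4.14 and 3.9. The lactate dehydrogenase subunit ldhb.L differed by 2.12 (adjusted p = 0.0011), and the phosphofructokinase gene pfkm.S by -1.23 (adjusted p = 0.026). The lower call, pfkm.S, was lost without stage 57 replicate 2 or 3 or stage 53 replicate 3 or 4, or in the 8 arrays at 5 days alone (adjusted p up to 0.0821). Muscle creatine kinase, ckm.L, did not pass at 0.56 (adjusted p = 0.36). The sarcomere list also holds mustn1.L. This gene, which codes for a nuclear protein of muscle and cartilage in mammals, read 9481, 3454.5, 4192.5 and 5222 in stage 57 limbs, against 377, 521, 455 and 543 in stage 53 limbs. No array overlapped (log2 difference 3.46, SE 0.38, adjusted p = 9.57e-05). Another member, cavin4.S, the caveolar coat protein of muscle, read 1561, 702, 571 and 709 in stage 57 limbs, against 37.6, 49.7, 14.1 and 70.8 in stage 53 limbs. Again the groups did not overlap (log2 difference 4.46, SE 0.74, adjusted p = 0.00143).

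Among 14 tested myogenic regulators, which include receptor subunits of the forming synapse, 1 was higher (7.14%, against 3.89% of all probe sets), and the median was 0.85. That gene was chrng.L, the embryonic subunit of the muscle acetylcholine receptor, at 1148.5, 716, 513 and 611 in stage 57 limbs, against 60.7, 89.3, 194 and 210.5 in stage 53 limbs. All stage 57 arrays exceeded all stage 53 arrays (log2 difference 2.55, SE 0.46, adjusted p = 0.00266). Myogenin, myog.L, was at 1.8 (adjusted p = 0.068), myod1.L at 0.86 (adjusted p = 0.187) and myf5.L at -0.81 (adjusted p = 0.26), none past the threshold. With the 3 arrays left out, 5 of 15 tested members were higher and 1 lower, against 7.54% and 8.27% of all. The 10 muscle marker genes summed to 26279 to 82992 signal units on stage 57 arrays and 4755 to 6519 on stage 53 arrays, and 9 of them were higher. In tissue of mixed cells, fewer cells of a type and less RNA per cell cannot be told apart, and the part of tissue makeup in these results was not tested.

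**Figure D2:**
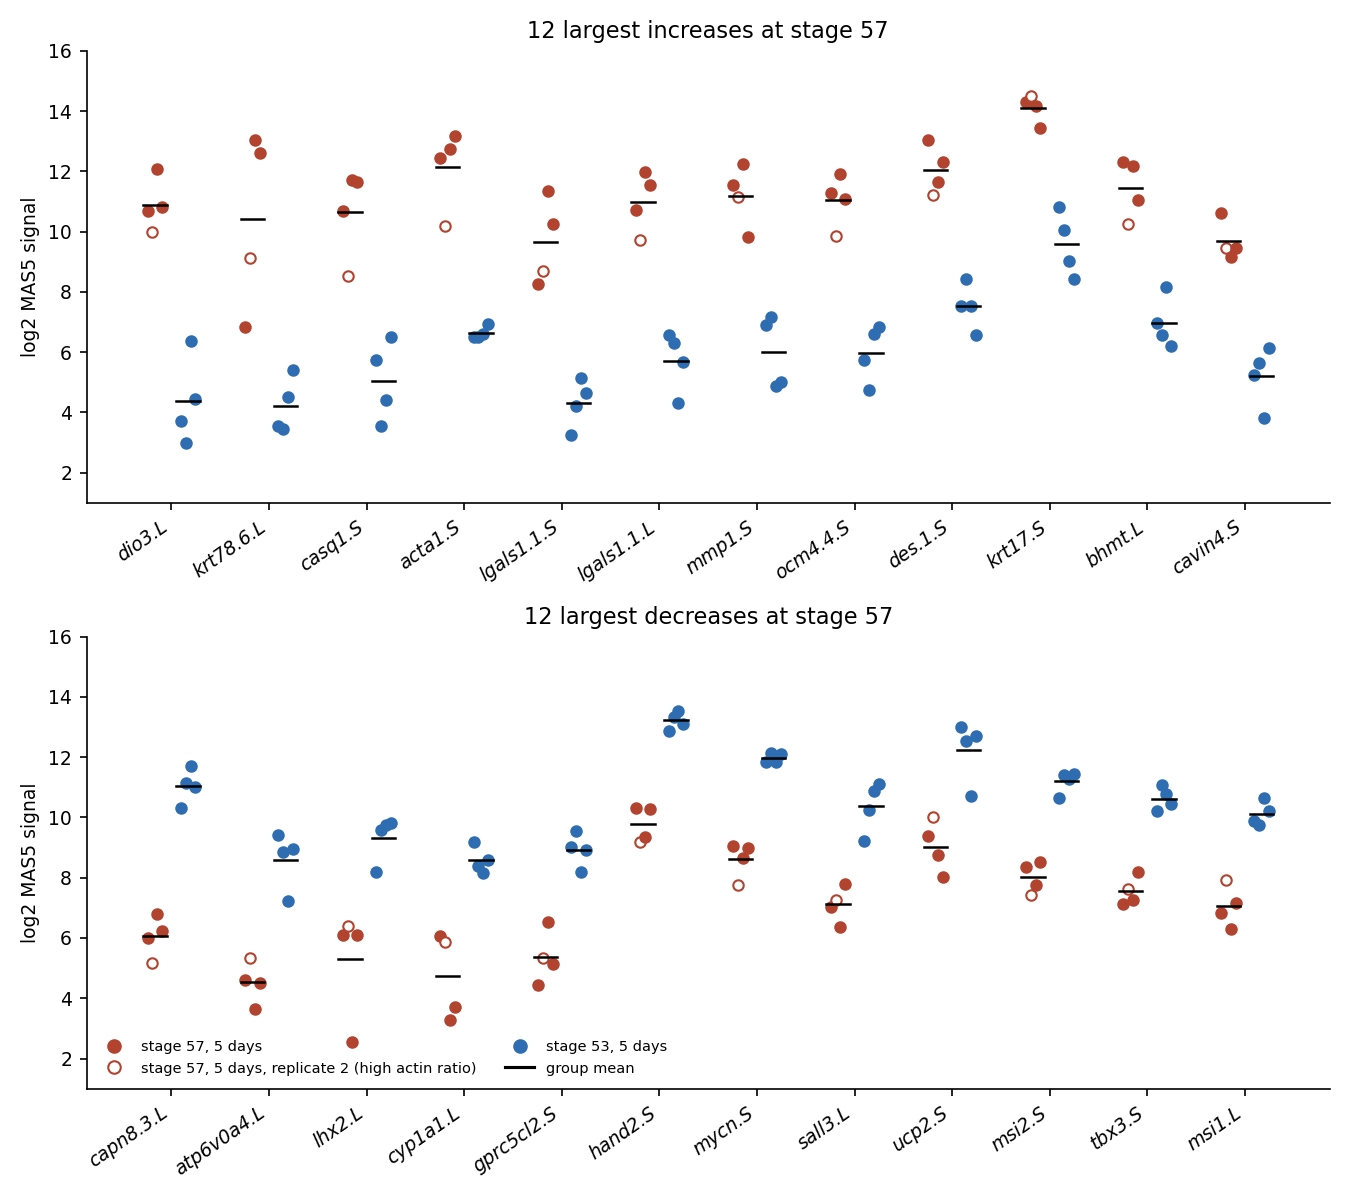
Log2 signal on each array at 5 days for the 12 largest increases and the 12 largest decreases, with stage 57 arrays left of stage 53 arrays and horizontal bars at the group means. Open circles mark stage 57 replicate 2. In each of the 24 genes the groups do not overlap, as the rule for choosing them required.

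Many matrix genes of fibroblasts and wounds were also higher. Of 26 tested, 14 were higher, against 3.89% of all probe sets, and 1 lower, with a median of 1.42. The counts were 21 higher, against 7.54% of all, and 1 lower without the 3 arrays. The count of higher members was 9 without stage 57 replicate 3 and 9 without stage 57 replicate 4. The list mean was 12.52, 11.74, 13.02 and 12.98 log2 units on stage 57 arrays, against 11.3, 11.14, 10.78 and 11.11 on stage 53 arrays. Vimentin, vim.S, the intermediate filament of mesenchyme, read 17327, 27139, 29947.5 and 25669.6 in stage 57 limbs, against 5443, 3259, 2588 and 3387 in stage 53 limbs. It was 6.94-fold higher without overlap (log2 difference 2.8, SE 0.32, adjusted p = 0.000119), and its copy vim.L by 2.4 (adjusted p = 0.000152). Tenascin C, tnc.L, a glycoprotein of healing and developing matrix, read 6681.5, 8328, 12735 and 11734 in stage 57 limbs, against 2469.5, 1314, 1276 and 983 in stage 53 limbs. The groups lay apart (log2 difference 2.75, SE 0.34, adjusted p = 0.000152), and another probe set gave 2.01. Type III collagen, col3a1.S, read 16999, 13241, 25898 and 24848 in stage 57 limbs, against 6089, 5023, 2488 and 3115 in stage 53 limbs. The difference was 4.97-fold (log2 difference 2.31, SE 0.32, adjusted p = 0.000343). The matricellular growth factor ccn2.L read 18059, 40991, 23410.3 and 25461 in stage 57 limbs, against 4524, 4726, 2452 and 1124 in stage 53 limbs. Stage 57 replicate 2 was the highest array there (log2 difference 3.22, SE 0.54, adjusted p = 0.00149).

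In thbs4.S, tagln.L and fbln1.L that array was the lowest of its group. Thrombospondin 4, thbs4.S, a protein of tendon and muscle attachment in mammals, read 2060.2, 219.8, 4673 and 3219.9 in stage 57 limbs, against 139.5, 83.6, 49.5 and 125 in stage 53 limbs. Its difference was 4.13 with all arrays (SE 0.74, adjusted p = 0.00281) and 5.09 without the 3 arrays. The copy thbs4.L, at 2.6, did not pass. Transgelin, tagln.L, an actin-binding protein of smooth muscle and myofibroblasts, read 3812, 571, 3482.5 and 3269 in stage 57 limbs, against 133, 184, 206 and 225.5 in stage 53 limbs. It gave 3.6 (adjusted p = 0.00334) with all arrays and 4.26 without the 3. Type I collagen, col1a1.S, read 33133, 54328, 60139 and 62468 in stage 57 limbs, against 28232, 19205, 18096 and 19897.5 in stage 53 limbs. The difference was small and without overlap (log2 difference 1.28, SE 0.27, adjusted p = 0.00867), and another probe set did not pass, at 0.7 (adjusted p = 0.192). Fibulin 1, fbln1.L, a matrix glycoprotein, was the single lower call, at 15548, 4945, 12644 and 15298 in stage 57 limbs, against 25606.5, 35423, 37936.5 and 38173 in stage 53 limbs. The groups did not overlap (log2 difference -1.62, SE 0.38, adjusted p = 0.0166), but the call was lost without stage 53 replicate 3 or 4 (adjusted p up to 0.0558). The 5 fibroblast marker genes summed to 77709 to 145168 units at stage 57 and 43062 to 64846 at stage 53, with 3 of 5 higher.

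**Figure D3:**
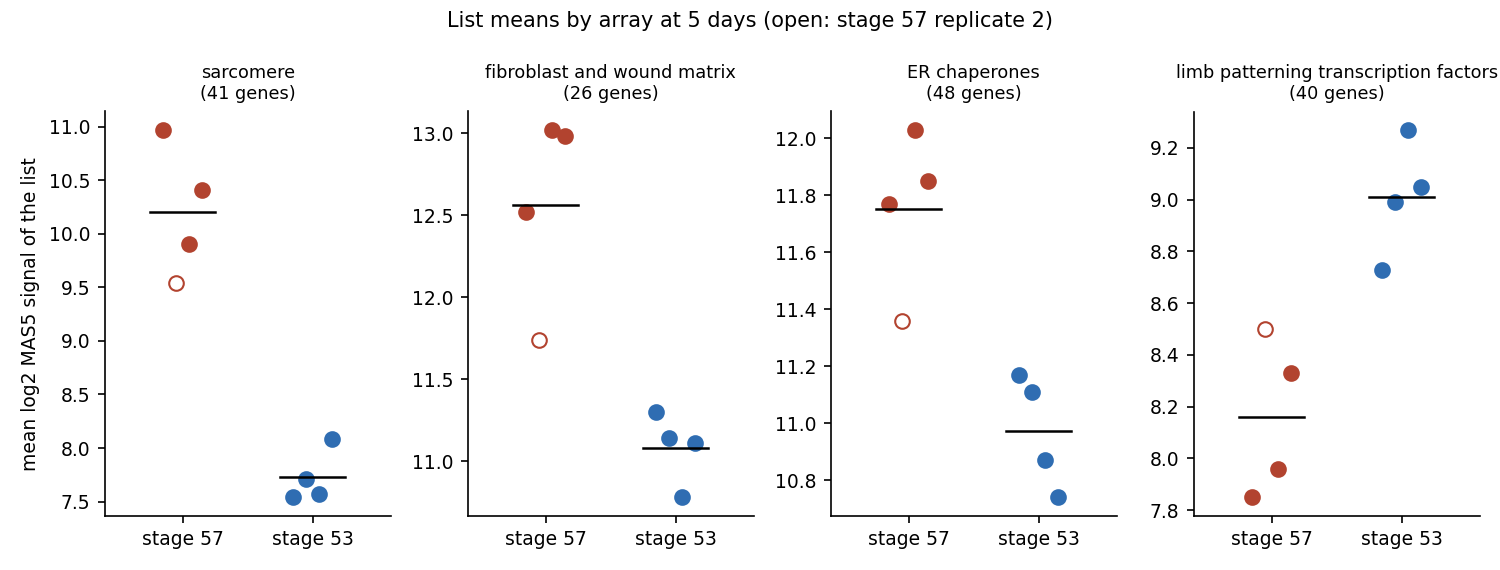
Mean log2 signal of the tested genes of 4 lists on each array at 5 days, stage 57 left of stage 53. The sarcomere, fibroblast matrix and ER chaperone lists lie higher on the stage 57 arrays, and the limb transcription factor list lies lower, without overlap in any of the 4.

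Among matrix proteases and plasminogen genes, 8 of 21 tested were higher, against 3.89% of all probe sets, and 1 lower, with a median of 0.35. Leaving out the 3 arrays gave 11 higher, against 7.54% of all, and 1 lower. Interstitial collagenase, mmp1.S, read 2968, 2274, 4888 and 907 in stage 57 limbs, against 119.7, 143, 29.6 and 32.1 in stage 53 limbs. No array overlapped, and the difference was 36.8-fold (log2 difference 5.2, SE 0.76, adjusted p = 0.000499). The collagenase-3-like gene mmp13l.L read 489.6, 246, 580.2 and 336 in stage 57 limbs, against 21.3, 29.2, 43.8 and 22.5 in stage 53 limbs. It was 14-fold higher (log2 difference 3.81, SE 0.43, adjusted p = 0.000111), and the copy mmp13l.S differed by 3.73 (adjusted p = 0.00362). The epidermal protease mmp28.L read 809, 783, 1055 and 962 in stage 57 limbs, against 271, 351, 206 and 359 in stage 53 limbs, with narrow spread in both groups (log2 difference 1.63, SE 0.26, adjusted p = 0.00104). Fibroblast activation protein, fap.L, a surface protease of activated fibroblasts in mammals, read 3049.6, 9819, 6101 and 3109 in stage 57 limbs, against 1663, 1245, 1017 and 1008 in stage 53 limbs. Its groups did not overlap (log2 difference 2.02, SE 0.37, adjusted p = 0.00322). The plasminogen activator plat.L differed by 1.82 (adjusted p = 0.00139) and serpinf1.L, a secreted serpin, by 2.9 (adjusted p = 0.00147). Stromelysin-1, mmp3.L, ran the other way, at 68.2, 89.6, 8.5 and 53.7 in stage 57 limbs, against 298, 172, 633.5 and 446 in stage 53 limbs. It was 8.49-fold lower at stage 57 (log2 difference -3.09, SE 0.67, adjusted p = 0.0101). The gelatinases did not pass, with mmp2.S at 0.26 (adjusted p = 0.823) and mmp9.1.S at 0.37 (adjusted p = 0.636), nor did the inhibitor timp3.L, at -1.07 (adjusted p = 0.275).

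Of 10 cartilage genes tested, 2 were higher (20%, against 3.89% of all probe sets), 8 were higher at an unadjusted p below 0.05, and the median was 1.58. Without the 3 arrays 4 were higher, against 7.54% of all. This small count turned on single arrays: it was 7 without stage 57 replicate 1, 4 without stage 53 replicate 2, and 1 without stage 57 replicate 3 or 4 or stage 53 replicate 3 or 4. Matrilin 2, matn2.L, an adaptor protein of matrix filaments, read 399, 219, 793 and 871 in stage 57 limbs, against 87.8, 83.1, 55.7 and 95.4 in stage 53 limbs. The groups lay apart (log2 difference 2.65, SE 0.42, adjusted p = 0.00109). Matrilin 4, matn4.L, read 195, 1245, 828 and 1626 in stage 57 limbs, against 152, 166, 57.5 and 143 in stage 53 limbs. The difference was 2.65 (adjusted p = 0.0237), and the call was lost without stage 57 replicate 2, 3 or 4 or stage 53 replicate 3 or 4 (adjusted p up to 0.0854). Type II collagen, col2a1.S, the main collagen of cartilage, read 1172, 2607, 7245 and 18872 in stage 57 limbs, against 1873, 2121, 1113 and 1827 in stage 53 limbs. It spread more than 8-fold within stage 57, overlapped stage 53 and did not pass (log2 difference 1.42, SE 0.64, adjusted p = 0.197). The regulator sox9.S was at -0.18 (adjusted p = 0.871). Of 6 bone genes tested, 2 were higher, col1a1.S and alpl.L, and 1 lower (50%, against 7.37% of all probe sets). The counts were 2 and 2 without the 3 arrays, 1 higher without stage 57 replicate 2, 3 or 4 or any 1 stage 53 replicate, and 0 lower without stage 53 replicate 2, 3 or 4. Alkaline phosphatase, alpl.L, an enzyme of mineralisation, read 1476, 3673, 1846 and 1747 in stage 57 limbs, against 767, 783, 758 and 1184 in stage 53 limbs. The groups did not overlap, and the difference of 1.26 (adjusted p = 0.04) was lost without stage 57 replicate 2, 3 or 4 or stage 53 replicate 1, 2, 3 or 4 (adjusted p up to 0.106). BMP2, bmp2.L, a growth factor of bone and limb, read 149.5, 18.4, 162 and 199 in stage 57 limbs, against 351, 540.0, 388 and 474 in stage 53 limbs. It was lower at stage 57 by a value that the 3 arrays moved, -2.16 (adjusted p = 0.0294) with them and -1.36 (adjusted p = 0.0026) without. The call was lost without stage 53 replicate 2, 3 or 4, under quantile normalization or in the 8 arrays at 5 days alone (adjusted p up to 0.0812). The copy bmp2.S, at -1.06, did not pass (adjusted p = 0.13). Cartilage markers summed to 3206 to 33980 units at stage 57 and 3027 to 8293 at stage 53. Of 4 bone markers 1 is on the array and 0 passed the signal filter.

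Several transcription factors that pattern the limb were lower at stage 57. Of 40 tested, 10 were lower, against 3.48% of all probe sets, 2 were higher, and the median was -0.73 with 31 of 40 negative. Without the 3 arrays 19 of 41 were lower, against 8.27% of all, and 1 higher. The list mean was 7.85, 8.5, 7.96 and 8.33 log2 units on stage 57 arrays, against 8.73, 8.99, 9.27 and 9.05 on stage 53 arrays. HAND2 marks the posterior side of the vertebrate limb bud, and its gene hand2.S read 1281.5, 581, 657.5 and 1228 in stage 57 limbs, against 7514, 10296.5, 11933 and 8854 in stage 53 limbs. It was 10.8-fold lower (log2 difference -3.43, SE 0.44, adjusted p = 0.000197; -3.23 without the 3 arrays), with -1.79 (adjusted p = 0.00968) for hand2.L. Tbx3, a T-box factor of the limb margins, was measured by tbx3.S at 139.9, 199, 152 and 290.4 in stage 57 limbs, against 1189, 2145, 1763 and 1386 in stage 53 limbs. No array overlapped (log2 difference -3.08, SE 0.45, adjusted p = 0.000477), while tbx3.L at -1.38 did not pass (adjusted p = 0.0805). The zinc-finger gene sall3.L read 129, 152, 83.1 and 222 in stage 57 limbs, against 593.5, 1220.0, 1885 and 2226 in stage 53 limbs. It too was lower without overlap (log2 difference -3.26, SE 0.45, adjusted p = 0.000336).

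Factors of the distal mesenchyme followed. The homeobox gene msx1.L, expressed under the apical epidermis in limb buds, read 147, 194, 181 and 221 in stage 57 limbs, against 572, 765, 1208 and 1188 in stage 53 limbs. All stage 57 arrays lay below all stage 53 arrays (log2 difference -2.28, SE 0.36, adjusted p = 0.0011), and msx2.L differed by -2.53 (adjusted p = 0.00998). The LIM-homeobox gene lhx2.L, which acts downstream of ridge signals in chick limbs, read 68.6, 83.4, 5.9 and 68.7 in stage 57 limbs, against 289, 767, 859 and 890.4 in stage 53 limbs. The difference was 16.4-fold (log2 difference -4.04, SE 0.73, adjusted p = 0.00282), but another probe set for the gene gave -0.63 (adjusted p = 0.595). The dorsal determinant lmx1b.1.S differed by -1.58 (adjusted p = 0.0092). Pitx1, the factor that sets hindlimb identity in vertebrates, was measured by pitx1.L at 1313, 1342, 931 and 1949 in stage 57 limbs, against 2267, 2786, 3714 and 3184 in stage 53 limbs. Its difference was -1.14 (adjusted p = 0.014), and the call was lost without stage 57 replicate 3 or stage 53 replicate 3 (adjusted p up to 0.0601). A further zinc-finger gene, sall1.L, differed by -2.27 (adjusted p = 0.0348) and was lost without stage 57 replicate 1, 2 or 3 or stage 53 replicate 2, 3 or 4 (adjusted p up to 0.125). The higher pair were runx1.L, 2.42 (adjusted p = 0.0456), whose groups overlapped, and zeb2.S. The runx1.L call was lost without stage 53 replicate 1, 2 or 4, with an offset of 103.2 or without the signal filter (adjusted p up to 0.121), and the probe set did not pass the signal filter without the 3 arrays. The repressor zeb2.S, active in mesenchyme, read 369, 821, 448 and 491 in stage 57 limbs, against 148, 98.7, 142 and 158 in stage 53 limbs. Its groups lay apart (log2 difference 1.92, SE 0.4, adjusted p = 0.00821).

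All 13 tested Hox genes, the regulators of position along limb and trunk, had negative differences, with a median of -0.84. For hoxc10.L, hoxd8.L and hoxd3.L these were -0.04, -0.02 and -0.01, smaller than the shift that centring makes. Only 2 passed (15.4%, against 3.48% of all probe sets), 1 passed without stage 57 replicate 1 or 3 or stage 53 replicate 2, 3 or 4, and 6 passed without the 3 arrays, against 8.27% of all. Signal for hoxc8.S was 402, 268, 175 and 436 in stage 57 limbs, against 1152, 1196, 1761 and 2023 in stage 53 limbs. It was 4.94-fold lower without overlap (log2 difference -2.31, SE 0.39, adjusted p = 0.00157). The other call, hoxa3.S at -1.19 (adjusted p = 0.0414), came from overlapping groups and was lost without stage 57 replicate 1, 2 or 3 or stage 53 replicate 2, 3 or 4, or under median centring (adjusted p up to 0.127). Neither hoxa11.S, at -0.7 (adjusted p = 0.433), nor hoxd13.S, at -0.81 (adjusted p = 0.479), passed. Over stage 53 arrays hoxd13.S spread from 104 to 861 units. At 1 day the median of the same 13 genes was 0.03 with all arrays, and the change of the median between days was not tested.

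Among 14 tested FGF pathway genes 3 were lower, against 3.48% of all probe sets, and 1 higher, with a median of -0.56. With the 3 arrays left out 6 of 15 were lower, against 8.27% of all, and 1 higher. Signal for fgf8.L, the ligand of the apical ridge, was 38.1, 92.5, 53.4 and 126 in stage 57 limbs, against 292, 278, 381 and 304 in stage 53 limbs. The groups did not overlap (log2 difference -2.16, SE 0.47, adjusted p = 0.00996; -2.3 without the 3 arrays). At 1 day it read 57.1, 85.9, 255 and 80.1 in stage 57 limbs, against 67, 110.3, 138 and 121 in stage 53 limbs. Those groups overlapped, with a difference of -0.07 (adjusted p = 0.945). The reading of 255 came from stage 57 replicate 3, an array of high actin ratio. The difference between days, -2.08, did not pass (adjusted p = 0.997, limma). The feedback inhibitor spry2.S read 258, 282, 146 and 177 in stage 57 limbs, against 398, 516, 488 and 543 in stage 53 limbs. It was lower by a small margin on every array (log2 difference -1.21, SE 0.26, adjusted p = 0.00856), and its copy spry2.L by -2.02 (adjusted p = 0.0234), a call lost without stage 57 replicate 2, 3 or 4 or stage 53 replicate 2, 3 or 4 (adjusted p up to 0.0716). Another feedback inhibitor, dusp6.L, did not pass at -2.5 (adjusted p = 0.0533). The immediate early factor egr1.L was higher, 1.81 (adjusted p = 0.0247), and lost without stage 57 replicate 3 or 4 or stage 53 replicate 3 or 4 (adjusted p up to 0.0883).

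Among 47 BMP and TGF-beta genes, 5 were lower and 2 higher (14.9%, against 7.37% of all probe sets), with a median of -0.4. Leaving out the 3 arrays gave 9 lower and 6 higher, against 8.27% and 7.54% of all, with a median of -0.25. The count of lower genes was 3 without stage 53 replicate 2, 3 or 4, and 0 were higher without stage 53 replicate 3 or 4. Gremlin, grem1.L, the secreted BMP antagonist of the limb bud, read 128, 63.4, 142 and 314 in stage 57 limbs, against 1173, 906, 1020.1 and 1048 in stage 53 limbs. It was 7.48-fold lower at stage 57 (log2 difference -2.9, SE 0.38, adjusted p = 0.000241), with the groups far apart. The inhibitory smad6.L differed by -1.13 (adjusted p = 0.00762) and the activin receptor acvr2b.S by -1.59 (adjusted p = 0.0113). The copy acvr2b.L, at -0.93, did not pass (adjusted p = 0.367). Calls of smad9.S, -1 (adjusted p = 0.0348), and of the ligand tgfb2.L, 1.89 (adjusted p = 0.0271), were less stable: smad9.S was lost without stage 57 replicate 1, 3 or 4 or stage 53 replicate 2, 3 or 4, or under median centring (adjusted p up to 0.114) and tgfb2.L without stage 57 replicate 1, 3 or 4 or stage 53 replicate 3 or 4, or in the 8 arrays at 5 days alone (adjusted p up to 0.0868). The activin antagonist fst.L, 1.02 (adjusted p = 0.0234), was lost without stage 57 replicate 2 or stage 53 replicate 3 or 4, or in the 8 arrays at 5 days alone (adjusted p up to 0.0813).

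The WNT pathway gave 2 higher and 2 lower calls among 38 tested genes (10.5%, against 7.37% of all probe sets), and their median was -0.16. These were 2 higher and 5 lower of 40 without the 3 arrays, against 7.54% and 8.27% of all. The secreted WNT inhibitor wif1.S read 1711, 1168, 4479 and 4913 in stage 57 limbs, against 527, 815, 784 and 787 in stage 53 limbs. Its groups did not overlap (log2 difference 1.84, SE 0.5, adjusted p = 0.0316), but the call was lost without stage 57 replicate 3 or 4 or stage 53 replicate 1, 2, 3 or 4 (adjusted p up to 0.112). The ligand wnt11.S was at 1.64 (adjusted p = 0.0296), and the receptors were at -1.05 (adjusted p = 0.0448) for fzd7.L and -1.03 (adjusted p = 0.0365) for fzd10.S. These 3 calls were lost as well under several settings: wnt11.S without stage 57 replicate 1, 3 or 4 or stage 53 replicate 2, 3 or 4 (adjusted p up to 0.102), fzd7.L without stage 57 replicate 1, 2 or 3 or stage 53 replicate 2, 3 or 4, under quantile normalization, under median centring or without the signal filter (adjusted p up to 0.126) and fzd10.S without stage 57 replicate 1, 3 or 4 or stage 53 replicate 1, 2, 3 or 4, under median centring or without the signal filter (adjusted p up to 0.127). Of 14 retinoic acid genes 2 were higher (14.3%, against 3.89% of all probe sets). Without the 3 arrays 3 of 15 were higher, against 7.54% of all. The 2 called with all arrays were rarres1.L at 1.46 (adjusted p = 0.00691) and the retinaldehyde reductase dhrs3.L at 1.74 (adjusted p = 0.0202). The copy rarres1.S had the opposite sign, at -0.53, and did not pass (adjusted p = 0.521). The call of dhrs3.L was lost without stage 57 replicate 1 or stage 53 replicate 3 or 4, or in the 8 arrays at 5 days alone (adjusted p up to 0.072). Of 5 tested hedgehog pathway genes limma called 0, while 3 were lower at an unadjusted p below 0.05 and 1 was called lower without the 3 arrays. The effector gli3.L stood at -1.23 (adjusted p = 0.0843).

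The myc paralogues differed in opposite directions. N-myc, expressed in limb bud mesenchyme, was measured by mycn.S at 526, 218, 402.5 and 503 in stage 57 limbs, against 3689.7, 4523, 3693 and 4388 in stage 53 limbs. It was 10.4-fold lower at stage 57 (log2 difference -3.38, SE 0.51, adjusted p = 0.000709), and mycn.L was lower by a log2 difference of -1.8 (adjusted p = 0.000709). Signal for myc.S, the growth and injury response gene, was 2265, 5726, 2328 and 2533 in stage 57 limbs, against 488, 631, 282 and 146 in stage 53 limbs. It was 8.81-fold higher (log2 difference 3.14, SE 0.5, adjusted p = 0.0011; 2.82 without the 3 arrays), with 2.32 for myc.L (adjusted p = 0.011). Stage 57 replicate 2 was the highest array for myc.S, and the remaining stage 57 arrays also exceeded stage 53. The Musashi proteins, RNA-binding proteins of progenitor cells, went with N-myc. Signal for msi2.S was 329.5, 170.5, 215 and 369 in stage 57 limbs, against 1617, 2705, 2472 and 2764 in stage 53 limbs. It was 9.05-fold lower (log2 difference -3.18, SE 0.31, adjusted p = 3.09e-05). Signal for msi1.L was 113, 245, 78.5 and 144 in stage 57 limbs, against 939.6, 868, 1586 and 1196 in stage 53 limbs. It was 8.38-fold lower (log2 difference -3.07, SE 0.38, adjusted p = 0.000152), with -2.74 (adjusted p = 0.000336) for msi1.S.

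Of 52 tested genes of replication and licensing limma called 0, with 10 lower at an unadjusted p below 0.05, and it called 2 lower without the 3 arrays. The median was -0.35 with 46 of 52 differences negative, and it was -0.25 after median centring. At 1 day the median of these genes was 0.37. The smallest p at 5 days belonged to orc3.S, a subunit of the origin recognition complex, at -0.86 (adjusted p = 0.0668). Among 89 genes of mitosis and cell cycle control 2 were higher and 5 lower (7.87%, near the 7.37% of all probe sets), and their median was 0.03. All of these calls were the myc, mycn, msi1 and msi2 copies described above, and no other member of the list was called. The counts were 5 higher and 6 lower without the 3 arrays, against 7.54% and 8.27% of all.

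In the epidermis, keratins divided by gene. Of 39 tested genes of the epidermal list 5 were higher and 4 lower (23.1%, against 7.37% of all probe sets), and their median was -0.21. Of 38 tested without the 3 arrays, 4 were higher and 8 lower, against 7.54% and 8.27% of all. The count of higher genes was 2 without stage 57 replicate 3 and 3 without stage 57 replicate 4 or stage 53 replicate 2, 3 or 4, and that of lower genes 2 without stage 53 replicate 4. Keratin 17, a wound-activated keratin in mammals, was measured by krt17.S at 20327, 23228, 18378 and 10993 in stage 57 limbs, against 1814, 1062, 523 and 347 in stage 53 limbs. It was 22.9-fold higher without overlap (log2 difference 4.51, SE 0.43, adjusted p = 3.09e-05). Signal for krt78.6.L was 114, 563, 8364 and 6282 in stage 57 limbs, against 11.7, 11, 22.7 and 42.4 in stage 53 limbs. The stage 57 arrays alone spanned more than 8-fold, and all lay above stage 53 (log2 difference 6.17, SE 1.04, adjusted p = 0.00161). This probe set did not pass the signal filter without the 3 arrays, which are all from stage 57. Its higher signal is therefore partly tied to how it was selected. Signal for krt57.L was 745, 771, 7438 and 6516 in stage 57 limbs, against 370.3, 188, 162 and 227 in stage 53 limbs. It showed the same divide between stage 57 replicates 1 and 2 and replicates 3 and 4 (log2 difference 3.35, SE 0.72, adjusted p = 0.00947), and krt12.6.S repeated it, at 77.6, 688, 4320.0 and 2133 in stage 57 limbs, against 58.9, 65.2, 54.9 and 59.6 in stage 53 limbs. The krt12.6.S call, 3.81 (adjusted p = 0.0324), was lost without stage 57 replicate 3 or 4 or stage 53 replicate 1, 2, 3 or 4 (adjusted p up to 0.119).

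Other members of the epidermal list were lower. Signal for krt12.2.L was 1019, 252, 384 and 345 in stage 57 limbs, against 3694, 2837, 3083 and 4065 in stage 53 limbs. Its groups did not overlap (log2 difference -2.98, SE 0.7, adjusted p = 0.016), and the call was lost without stage 53 replicate 4 (adjusted p up to 0.0531). The copy krt12.2.S, at -1.4, did not pass. The calpain family gene capn8.3.L, a calcium-dependent protease, read 64.5, 35.8, 112 and 74.3 in stage 57 limbs, against 1267.5, 2245, 3355 and 2057 in stage 53 limbs. It was 31.8-fold lower (log2 difference -4.99, SE 0.74, adjusted p = 0.00059; -4.7 without the 3 arrays). The detoxifying oxidase cyp1a1.L read 67, 58.7, 9.8 and 13 in stage 57 limbs, against 580.0, 336, 282.5 and 381.5 in stage 53 limbs. It was 14.3-fold lower (log2 difference -3.84, SE 0.85, adjusted p = 0.0111). Both capn8.3.L and cyp1a1.L count among the 4 lower calls of the list, though neither is a keratin. They are also among the 12 largest decreases. The list was written with earlier results of these data known, so the count of lower members is no independent support. The 7 epidermis marker genes summed to 23646 to 31993 units at stage 57 and 33172 to 45882 at stage 53, with 1 higher and 1 lower.

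Several genes of ionocytes, the ion-transporting cells of tadpole skin, were lower. Of 21 tested ionocyte and mucous cell genes 5 were lower (23.8%, against 3.48% of all probe sets), with a median of -0.2. The count was 7 without the 3 arrays, against 8.27% of all. The count was 3 without stage 53 replicate 1 or 3 and 2 without stage 53 replicate 4. Signal for foxi1.L, the transcription factor that specifies ionocytes, was 10.1, 40.4, 22.4 and 41.9 in stage 57 limbs, against 374, 161, 262 and 289 in stage 53 limbs. It was 10.4-fold lower (log2 difference -3.38, SE 0.54, adjusted p = 0.00113; -3.62 without the 3 arrays). The proton pump subunit atp6v0a4.L read 24.4, 40.5, 12.6 and 22.8 in stage 57 limbs, against 678, 457, 148 and 492 in stage 53 limbs. Every stage 57 array was more than 2-fold below every stage 53 array (log2 difference -4.07, SE 0.5, adjusted p = 0.000152). A further subunit, atp6v1b1.L, read 76.4, 97.7, 72.4 and 47.8 in stage 57 limbs, against 755, 376, 328 and 363 in stage 53 limbs. It was lower without overlap (log2 difference -2.59, SE 0.47, adjusted p = 0.00311). The pump genes atp6ap1.1.L, -1.93 (adjusted p = 0.00396), and atp6v0d2.L, -1.25 (adjusted p = 0.0153), were also lower, and atp6v0d2.L was lost without stage 53 replicate 3 or 4 (adjusted p up to 0.0554). Carbonic anhydrase, ca2.L, did not pass at -1.47 (adjusted p = 0.0795). The 3 ionocyte markers summed to 107 to 179 units at stage 57 and 738 to 1807 at stage 53, and all 3 were lower. Of these, foxi1.L and atp6v0a4.L did not pass the signal filter in the 8 arrays at 5 days alone. They entered the main test by their mean over all 16 arrays, in which the stage 53 signals were the higher ones. Their lower signal is therefore partly tied to how they were selected. The part of ionocytes in the epidermal differences was not tested.

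Some injury response genes were higher. Of 35 tested 6 were higher, among them the myc copies and egr1.L described above (17.1%, against 3.89% of all probe sets), with a median of 0.36. With the 3 arrays left out 11 were higher, against 7.54% of all. At 1 day the median was -0.31. The cytokine signalling inhibitor socs3.L read 3276, 4211, 2732 and 3019.7 in stage 57 limbs, against 1233, 1337, 646 and 547 in stage 53 limbs. It was 3.74-fold higher without overlap (log2 difference 1.9, SE 0.29, adjusted p = 0.000853). The stress gene gadd45g.S read 1331, 1983.5, 1401 and 1353 in stage 57 limbs, against 578, 479, 239 and 224 in stage 53 limbs. It was higher on every stage 57 array (log2 difference 2.1, SE 0.36, adjusted p = 0.00162), with 1.87 (adjusted p = 0.00339) for gadd45g.L.

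Complement and acute phase genes went both ways, with 2 of 14 higher and 1 lower (21.4%, against 7.37% of all probe sets), and 3 higher and 1 lower without the 3 arrays. The classical pathway protease c1s.L read 7345, 1134.5, 1495.5 and 2629 in stage 57 limbs, against 346, 379.6, 219 and 279.8 in stage 53 limbs. It was higher without overlap (log2 difference 3, SE 0.47, adjusted p = 0.000921). The protease inhibitor alpha-2-macroglobulin, a2m.S, read 3420.0, 1952, 4208 and 4858 in stage 57 limbs, against 684, 607, 452 and 123 in stage 53 limbs. Its groups also lay apart (log2 difference 3.13, SE 0.45, adjusted p = 0.000421). Complement C3, c3.L, was lower, at 328.5, 346, 499 and 323 in stage 57 limbs, against 987, 667, 1669 and 1261 in stage 53 limbs. The difference was -1.56 (adjusted p = 0.0139) at 5 days and -3.07 (adjusted p = 0.000248) at 1 day, and the 5 day call was lost without stage 53 replicate 3 or 4 (adjusted p up to 0.0566).

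Of 14 myeloid genes 1 was higher (7.14%, against 3.89% of all probe sets), coro1a.S at 1.65 (adjusted p = 0.0301), which was lost without stage 57 replicate 2 or 3 or stage 53 replicate 2, 3 or 4 (adjusted p up to 0.0851). Leaving out the 3 arrays gave 2 higher and 1 lower, against 7.54% and 8.27% of all. Myeloid markers summed to 3798 to 9625 units at stage 57 and 4756 to 5403 at stage 53. Of 6 lymphoid genes limma called 0, with 1 lower at an unadjusted p below 0.05, and none of the 4 lymphoid markers is on the array. Of 14 erythroid genes 1 was lower (7.14%, against 3.48% of all probe sets). This was the membrane skeleton gene epb41.L, at 173, 204, 165 and 89.5 in stage 57 limbs, against 1038, 1164, 596 and 573 in stage 53 limbs. The groups did not overlap (log2 difference -2.41, SE 0.32, adjusted p = 0.000282), but the gene's other probe sets gave -0.87 and -0.38 and did not pass. The list had 5 lower, against 8.27% of all, and 1 higher without the 3 arrays, and 3 lower without stage 57 replicate 2 alone. Erythroid markers summed to 8262 to 104991 units at stage 57 and 26194 to 48676 at stage 53. Of 13 endothelial genes limma called 0, with 2 higher at an unadjusted p below 0.05 and 1 called higher without the 3 arrays, and pecam1.L stood at 1 (adjusted p = 0.0795).

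Nerve and Schwann cell genes included 4 higher of 15 tested (26.7%, against 3.89% of all probe sets), with a median of 0.15. With all arrays 6 of the 15 differences were negative, down to -1.23, and 3 were lower at an unadjusted p below 0.05. Leaving out the 3 arrays gave 5 higher and 2 lower, against 7.54% and 8.27% of all, with a median of 0.04. Of the 5 nerve and Schwann cell markers 3 are on the array, and 1 was tested, sox10.L. The growth cone protein gap43.S read 613, 823, 1366 and 966 in stage 57 limbs, against 337, 264, 223 and 285 in stage 53 limbs. It was higher without overlap (log2 difference 1.72, SE 0.27, adjusted p = 0.0011), while gap43.L at 0.87 did not pass (adjusted p = 0.202). The glial transcription factor sox10.L read 222, 249, 323 and 355 in stage 57 limbs, against 138, 96.9, 34.8 and 73.7 in stage 53 limbs. Every stage 57 array exceeded every stage 53 array (log2 difference 1.88, SE 0.42, adjusted p = 0.0114). Neuronal tubulin, tubb3.L, differed by 1.73 (adjusted p = 0.00663). The myelin protein pmp2.L differed by 1.56 (adjusted p = 0.0213) and was lost without stage 57 replicate 1 or stage 53 replicate 3 or 4 (adjusted p up to 0.0813).

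Some chaperones and translocation factors of the endoplasmic reticulum (ER), which handle secreted and membrane proteins, were higher. Of 48 tested 10 were higher (20.8%, against 3.89% of all probe sets), with a median of 0.68 and 43 positive differences. The count was 28 without the 3 arrays, against 7.54% of all. The count of higher genes was 5 without stage 53 replicate 3 and 4 without stage 53 replicate 4. The list mean was 11.77, 11.36, 12.03 and 11.85 log2 units on stage 57 arrays, against 11.17, 11.11, 10.87 and 10.74 on stage 53 arrays. BiP, hspa5.L, the main ER chaperone, read 5562, 7807, 7128 and 5124.5 in stage 57 limbs, against 1772, 1970.1, 650.0 and 476 in stage 53 limbs. It was 6.19-fold higher without overlap (log2 difference 2.63, SE 0.42, adjusted p = 0.00102), while hspa5.S at 1.79 did not pass (adjusted p = 0.0596). The disulfide isomerase pdia6.L read 6806.5, 18548.5, 5713 and 2386 in stage 57 limbs, against 1449, 1776, 1011 and 881 in stage 53 limbs. Stage 57 replicate 2 was by far the highest array there (log2 difference 2.39, SE 0.49, adjusted p = 0.00762; 1.88 without the 3 arrays). The translocon-associated subunit ssr3.L read 1075, 2106, 2147 and 1709.7 in stage 57 limbs, against 763, 552, 240.3 and 305 in stage 53 limbs. It was higher on each stage 57 array (log2 difference 2.02, SE 0.36, adjusted p = 0.00259), while ssr3.S at 1.15 did not pass (adjusted p = 0.0657). The ER form of HSP90 differed by 1.83 (adjusted p = 0.0141) as hsp90b1.L, a call lost without stage 53 replicate 4 (adjusted p up to 0.0588). For the secreted ER factor manf.S the difference was 2.54 (adjusted p = 0.0176), lost without stage 53 replicate 3 or 4 (adjusted p up to 0.0699). At 1 day the list's median was 0.02, and the test called none of its genes (limma).

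Cytosolic chaperones gave 2 higher and 1 lower of 36 (8.33%, near the 7.37% of all probe sets), with a median of 0.27. Without the 3 arrays 4 were higher and 2 lower, against 7.54% and 8.27% of all. The small heat shock gene hspb7.L, a muscle gene in mammals, read 1689.9, 1149, 676.5 and 1270.4 in stage 57 limbs, against 102, 107, 191 and 314 in stage 53 limbs. It was higher without overlap (log2 difference 2.83, SE 0.47, adjusted p = 0.00147). Of 62 mitochondrial respiration genes limma called 0, with 7 higher at an unadjusted p below 0.05 and a median of 0.16. The test called 7 higher and 1 lower without the 3 arrays, against 7.54% and 8.27% of all probe sets. Of 74 cytosolic ribosomal protein genes limma called 0, with 5 lower at an unadjusted p below 0.05. Their median was -0.02 as deposited, -0.09 after quantile normalization and 0.08 after median centring, so with all arrays it has no settled direction. The list mean was 14.26, 15.15, 14.21 and 14.27 log2 units on stage 57 arrays, against 14.34, 14.46, 14.59 and 14.77 on stage 53 arrays. Stage 57 replicate 2 was above each stage 53 array and the other stage 57 arrays were below. Without the 3 arrays 7 of the 74 were lower, against 8.27% of all probe sets. The median was then -0.3, with 69 of 74 differences negative.

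Some of the largest differences fell outside the lists. The galectin gene lgals1.1.L, of a family of sugar-binding proteins, read 1680.0, 834, 4077 and 3016 in stage 57 limbs, against 94.9, 79.4, 19.8 and 51 in stage 53 limbs. It was 38.8-fold higher (log2 difference 5.28, SE 0.63, adjusted p = 0.000143). Its copy lgals1.1.S read 304, 417, 2609.6 and 1227 in stage 57 limbs, against 9.6, 18.4, 35.2 and 25 in stage 53 limbs. The copies gave similar differences, 5.33 (adjusted p = 0.000325) for lgals1.1.S, though related probes may bind each other's RNA. The probe set of lgals1.1.S did not pass the signal filter without the 3 arrays, which are all from stage 57. Its higher signal is therefore partly tied to how it was selected. The methyl transfer enzyme bhmt.L, which recycles homocysteine, read 5076, 1214, 4620.3 and 2122 in stage 57 limbs, against 126, 94.4, 285 and 73.7 in stage 53 limbs. No array overlapped (log2 difference 4.47, SE 0.71, adjusted p = 0.00107), but another probe set gave 2.36 and did not pass (adjusted p = 0.139). Lower signal was found for the mitochondrial carrier ucp2.S, at 660.0, 1022, 429.6 and 260.3 in stage 57 limbs, against 8176, 5985, 1677 and 6710.3 in stage 53 limbs. It was 9.24-fold lower (log2 difference -3.21, SE 0.67, adjusted p = 0.00801). A receptor gene, gprc5cl2.S, read 21.5, 40.7, 92.8 and 35.1 in stage 57 limbs, against 513, 752, 291 and 485 in stage 53 limbs. This difference of -3.55 (adjusted p = 0.000152) was not shared by its other probe sets, at 0.67 and 0.2.

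Xenopus laevis carries 2 subgenomes, L and S, so many genes exist as a pair of copies. Both copies were tested for 768 pairs. Both were called in 24 pairs, in the same direction in all 24, and 1 copy alone was called in 86, which was the L copy in 53 and the S copy in 33. In 16 of the 86 the uncalled copy had the opposite sign. Of all tested probe sets 7.37% were called, and the counts of pairs show no excess of calls by themselves. The copies of ucp2 stood furthest apart, at 0.08 for ucp2.L and -3.21 for ucp2.S. Other pairs with unequal differences were tnnc1, the slow troponin C, at 3.22 for L and 0.84 for S, klhl41, a sarcomere assembly factor, at 4.35 for L and 2.15 for S, and ldhb, at 2.12 for L and -0.07 for S. The call of klhl41.S was lost without stage 53 replicate 1 or 3 (adjusted p up to 0.0702). The gap within a pair was not tested, and probes of one copy may bind RNA of the other.

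**Figure D4:**
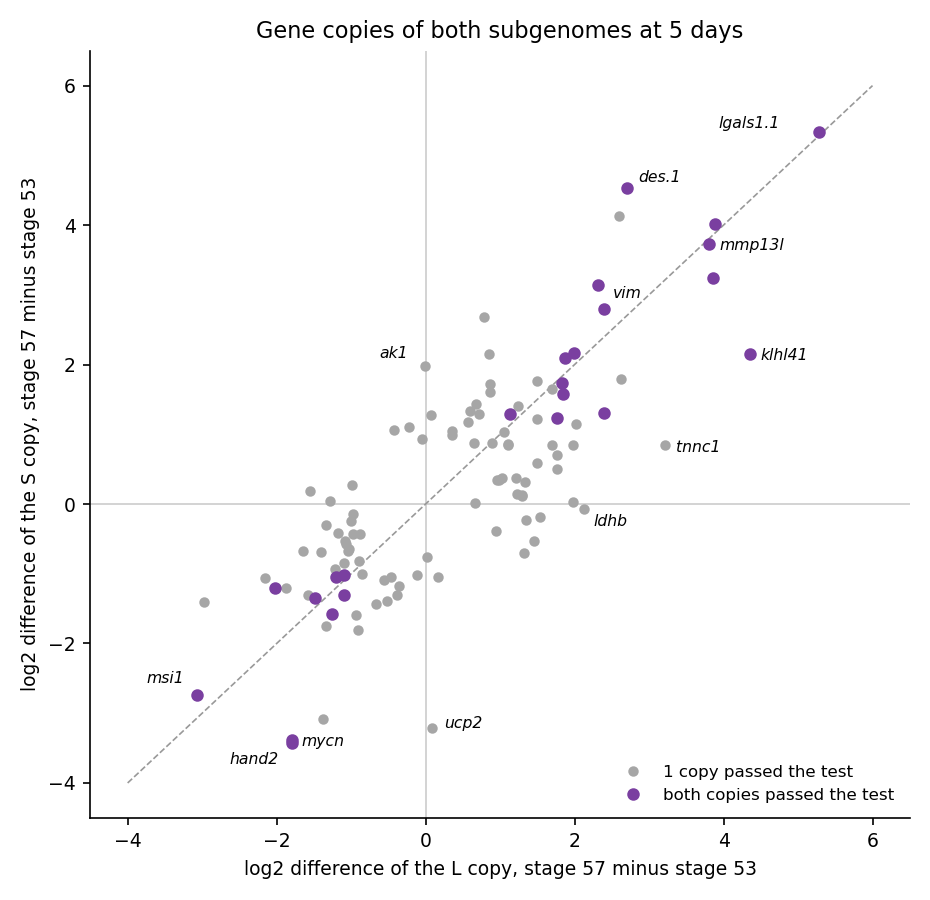
Log2 differences of the L copy (horizontal axis) and the S copy (vertical axis), stage 57 minus stage 53 at 5 days, for gene pairs with at least 1 called copy. The 24 pairs called in both copies lie in the lower left and upper right, and ucp2 lies far below the line of equality at 0.08 and -3.21.

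The stage difference was also compared between days, 5 days minus 1 day, in the same fit. At 1 day 296 probe sets (2.55%) differed between the stages, and 210 of the 856 called at 5 days were called there too. Of the 41 sarcomere genes 29 were higher at 1 day, with a median of 2.89. The fibroblast matrix list had 8 of 26 higher, and the limb factor list 4 of 40 lower. Only 3 probe sets (0.0258%) passed the test of the difference between days. When any 1 of the 8 arrays at 5 days was left out, 0 to 2 passed. At an unadjusted p below 0.05 there were 461 of the 11618, fewer than the 1 in 20 that chance gives on average. Without the 3 arrays 0 passed in limma, with 769 at an unadjusted p below 0.05, more than 1 in 20.

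The gene with the largest such change among the 3 was krt17.S. At 5 days it was 4.51 log2 units higher at stage 57, whereas at 1 day it read 25450.5, 28969.5, 12071 and 18681 in stage 57 limbs, against 22995, 14345, 13059.7 and 15211 in stage 53 limbs. The groups overlapped at 1 day, with a difference of 0.34 (adjusted p = 0.681). The difference between days was 4.18 (SE 0.61, adjusted p = 0.0363). The protease mmp13l.L read 242, 282, 201 and 112 in stage 57 limbs, against 127, 386, 210.3 and 136 in stage 53 limbs at 1 day. Those groups overlapped too, and the difference between days was 3.77 (SE 0.61, adjusted p = 0.0483). The inhibitor socs3.L read 2189, 2803, 2168 and 2287 in stage 57 limbs, against 3964, 2624, 4422 and 3850.3 in stage 53 limbs at 1 day. Its difference at 1 day, -0.64 (adjusted p = 0.268), had the opposite sign and did not pass, and the difference between days was 2.54 (SE 0.42, adjusted p = 0.0483). Next came mmp1.S, at 3684, 3758, 494.5 and 385 in stage 57 limbs, against 3619, 3125, 1333 and 2342.5 in stage 53 limbs at 1 day. Its difference between days, 6.14 (SE 1.07, adjusted p = 0.0741), did not pass, nor did that of gadd45g.S, 2.69 (SE 0.5, adjusted p = 0.127). In krt17.S, mmp13l.L and mmp1.S the stage 53 limbs had lower signal at 5 days than at 1 day on every array.

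**Figure D5:**
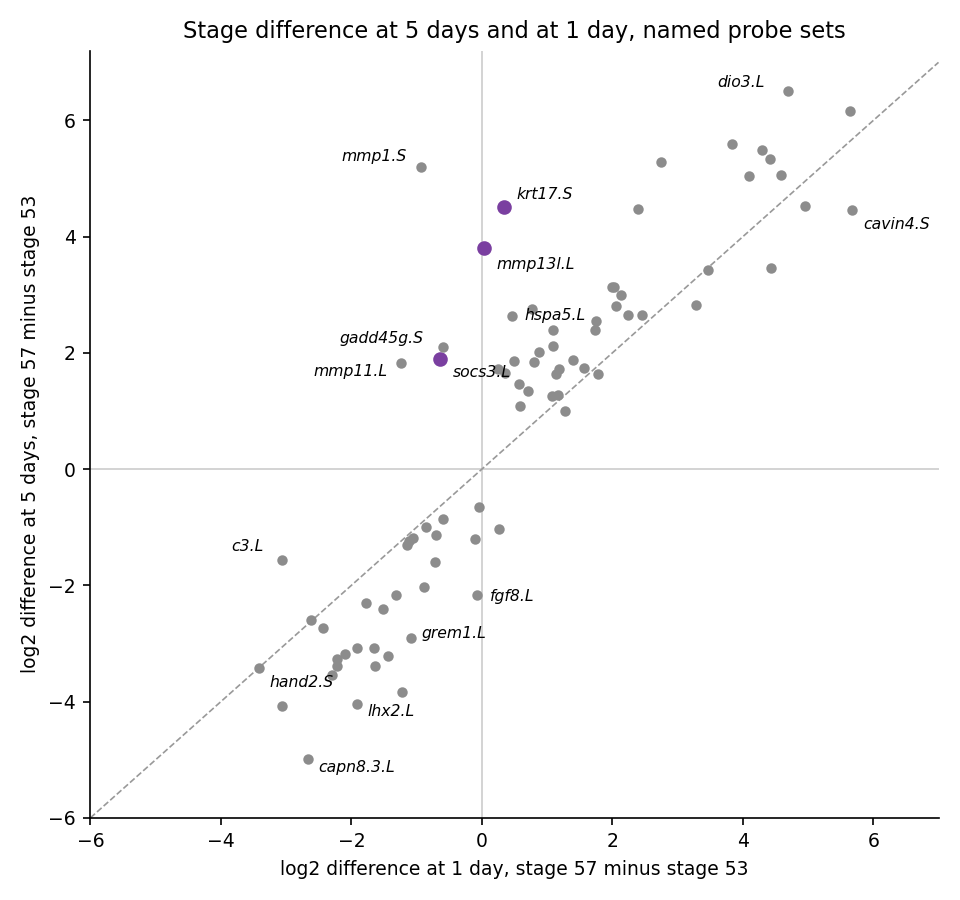
Log2 difference of stage 57 minus stage 53 at 5 days (vertical axis) against that at 1 day (horizontal axis) for the genes named by rule. The dashed line marks equal differences. The 3 genes whose difference changed between days, krt17.S, mmp13l.L and socs3.L, are marked in purple above the line. Of the sarcomere genes, des.1.S lies near the line, at 4.53 at 5 days and 4.95 at 1 day. Further off lie acta1.S, at 5.49 and 4.29, and cavin4.S, at 4.46 and 5.68.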

How the data were processed

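The authors deposited MAS5 signal intensity values on a linear scale for 15611 probe sets on each of 16 arrays, per the submitters' processing notes. Which version of MAS5 and which scaling target were used is not given in the sources used here. From the values, each array's trimmed mean, with the outer 2 percent removed at each end, was 998.7 to 999.4, and signals ran from 0.6 to 325607.8. Precision is limited by the number of arrays.

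The 120 Affymetrix control probe sets were left out. Signals were taken to log2 without an offset, and the 11618 of 15491 probe sets whose mean log2 signal exceeded the 25th percentile were tested. Group means of all 16 arrays were fitted with limma 3.58.1 in R 4.3.3 (moderated variances with a mean trend), so that 4 groups share the estimate of spread. Differences are stage 57 minus stage 53, adjusted over all tested probe sets by Benjamini-Hochberg, and called below 0.05. The actin ratio, the GAPDH ratio and the bioB signal were compared by an exact permutation test over 70 regroupings, with 0.657 the adjusted p of the actin ratio.

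Symbols came from the platform annotation, updated through the RefSeq gene table of Xenopus_laevis_v10.1: 9304 probe sets have 1 symbol, 195 several and 5992 none, and 9227 matched. The deposited table gives no genome positions. In the 30 gene lists each gene is represented by its brightest probe set. Genes named by rule are the 12 largest called differences in each direction without overlap between groups and above the median signal of 363 units in the higher group, up to 3 called genes of each list by smallest p, and up to 5 calls each way between the days, 80 probe sets in all. A further 114 called list members and related genes were added after their values were seen. The comparison and the lists were chosen with earlier results of these data known.

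Alternatives were the 8 arrays alone, arrays of high actin ratio left out, quantile and median scaling, offsets of 32 and 103.2, other filters (none, or the 50th percentile), array weights and each array left out in turn. Cell types were checked by marker genes listed by hand.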

Additional observations from a re-analysis of the deposited data

Results flagged for a closer look

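In each group of 4 arrays behind the 194 probe sets described, 388 groups in all, the array furthest from the others was checked against Dixon's critical value at 95%. It was exceeded in 30 groups, where chance flags about 1 in 20, and 12 of the 30 rest on stage 57 replicate 2, the array with the actin ratio of 5.72. The check was made on log2 signals, while the array values below are printed on a linear scale. No cause of these values was tested.

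Stage 57 replicate 2 was the lowest of its group for mmp11.L (425.6, nearest array 1336), bmp2.L (18.4, nearest 149.5), smad6.L (324.7, nearest 461), tagln.L (571, nearest 3269), ccn1.S (993.6, nearest 2569) and calu.L (4153.5, nearest 6739). It was the highest of its group for myc.S (5726, nearest 2533), gadd45g.S (1983.5, nearest 1401), aldoa.L (50093, nearest 13336), krt61.L (4559.9, nearest 1788), manf.S (2632.5, nearest 836) and rpn1.S (8701, nearest 6099.5).

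Other stage 57 arrays stood out in 5 groups. Replicate 3 was lowest for lhx2.L (5.9, nearest 68.6) and highest for c3.L (499, nearest 346). Replicate 4 was lowest for mmp13l.S (1627, nearest 4009). Replicate 1 was highest for tpm1.L (8887, nearest 4557) and lowest for tmed4.S (507, nearest 945).

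Stage 53 arrays stood out in the remaining groups. Replicate 1 was lowest for lhx2.L (289, nearest 767) and wif1.S (527, nearest 784), and highest for atp6v1b1.L (755, nearest 376). Replicate 2 was lowest for cavin1.L (336, nearest 661) and highest for rcn3.L (4366, nearest 2969.9). Replicate 3 was lowest for matn4.L (57.5, nearest 143), wnt11.S (133, nearest 234) and anxa2.S (5241, nearest 7391). Replicate 4 was highest for alpl.L (1184, nearest 783), fzd10.S (403, nearest 291.5) and ogn.L (108, nearest 49.8), and lowest for tubb3.L (124, nearest 188) and ndufa6.S (454.5, nearest 885).

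The difference between the stages changed between days, 5 days minus 1 day, for 3 genes by the interaction test. On the log2 scale the change was 4.18 for krt17.S, 3.77 for mmp13l.L and 2.54 for socs3.L, and none of the 3 passed when the 3 arrays of high actin ratio were left out.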

How the results depend on the processing

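Over 19 alternatives, 8 of which leave out 1 array, the 3571 values of described genes kept direction in every case run; 345 lost the call and 16 gained it. Of 188 called probe sets 114 kept the call in every alternative that tested them. Leaving out each array in turn gave 253 to 451 higher calls, 153 to 412 lower calls and 0 to 2 calls between days. It also gave 9 to 17 higher fibroblast matrix genes, 23 to 29 higher sarcomere genes, 8 to 11 higher muscle calcium and energy genes, 8 to 13 lower limb transcription factors and 4 to 12 higher ER chaperones. Without the 3 arrays of high actin ratio 876 probe sets were higher and 961 lower, with 19 lower limb factors, 28 higher ER genes and 0 calls between days. The 5 day arrays alone, without the high ratio, gave 865 higher, 942 lower, 19 limb factors and 27 ER genes. Array weights gave 1213 higher, 1457 lower, 22 fibroblast genes, 20 limb factors, 29 ER genes and 11 calls between days. The 50th percentile filter, which tests fewer genes, left 13 sarcomere, 3 muscle calcium and energy and 5 limb genes. Calls between days numbered 1 with offsets of 32 or 103.2, without a filter and with the 50th percentile filter. Except for the filter, the cause was not tested. No paired analysis was possible because the labels carry only running array codes, with no replicate number shared between groups. No detection calls or background readings were used here, so low signals, such as those of lhx2.L and foxi1.L at stage 57 and of dio3.L at stage 53, hold an unknown share of background.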

Other observations

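Further gene families were looked up after their values had been seen, so their counts are descriptions and carry no test of the family. Caveolae, the small pits of the cell membrane, gave 6 higher genes of 12 tested at stage 57, where 3.89% of all probe sets were higher, with a median log2 difference of 1.17. The caveolar neck protein ehd2.S read 2817.5, 5240.3, 4876 and 4360.5 in stage 57 limbs, against 879.8, 1027, 1108 and 826 in stage 53 limbs, without overlap (log2 difference 2.14, SE 0.27, adjusted p = 0.000161). The structural proteins cav1.L, 2.09 (adjusted p = 0.00867), and cav2.S, 1.98 (adjusted p = 0.00147), were also higher. Calls of cavin1.L and ehd1.L were each lost in 6 of the 19 alternatives. Annexins and their S100 partners, which bind membranes in a calcium-dependent way, gave 5 higher of 16, with a median of 0.8. Among them s100a10.L differed by 1.93 (adjusted p = 0.00691). Calls of the annexins anxa1.1.L, anxa1.3.S, anxa2.S and anxa5.L were lost in 5, 2, 1 and 3 of the 19 alternatives.

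Carriers of the secretory pathway, beyond the ER chaperones, gave 13 higher and 1 lower of 53, with a median of 0.47. Of all probe sets, 3.89% were higher and 3.48% lower. The ribosome receptor of the ER, rrbp1.S, differed by 2.37 (adjusted p = 0.00117) and the ER stress gene creld2.S by 2.16 (adjusted p = 0.00676). Higher calls of kdelr2.L and rcn3.L were each lost in 1 of the 19 alternatives, and those of sec31b.L and p3h1.L in 3. Those of tmed10l.L, rpn1.S and tmed4.S were lost in 7, 8 and 11. The golgin golga2.S was the lower one, at -1.7 (adjusted p = 0.0208), a call lost without stage 57 replicate 3 or stage 53 replicate 3 or 4 (adjusted p up to 0.0812). Among splicing factors 8 of 83 were lower, where 3.48% of all probe sets were lower, and 75 did not pass. Their median was -0.33, against -0.102 over all probe sets. For pnisr.S the difference was -1.58 (adjusted p = 0.0116) and for pnisr.L -1.25 (adjusted p = 0.00433). For srsf7.L, a splicing factor rich in serine and arginine, it was -1.17 (adjusted p = 0.0206), a call lost without stage 57 replicate 2 or 3 or stage 53 replicate 4 (adjusted p up to 0.0781). The copy srsf7.S, at -0.42, did not pass. Calls of rbm25.S, clk2.S, prpf4b.L, acin1.S and u2surp.S were lost in 1, 4, 6, 11 and 10 of the 19 alternatives. Of 8 tested galectins 2 were higher, where 3.89% of all probe sets were higher. These were both copies of lgals1.1, and the family median was 0.02.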
